A study of Canis lupus familiaris with 2 samples.

Results

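The SLC25 family comprises the carrier proteins that move nucleotides, phosphate, carboxylates, amino acids, cofactors and iron across the mitochondrial inner membrane. Its members were taken as the features whose symbol is SLC25A followed by a number, together with UCP1, UCP2 and UCP3, and 48 of the 23510 features in the files met this rule (45 SLC25A genes and 3 UCP genes). RNA was sequenced from MDCK cells, a dog kidney line that forms a columnar epithelium, after culture on a semipermeable membrane in EMEM with 10% serum. One culture had 2-cm-high medium and 1 culture had 50-cm-high medium, in which the height of the medium set the static water pressure on the cells, and the labels place both at day 3 after plating of 40000 cells. Per the study's methods, the cells were set under the load on the day after seeding. These cultures are called 2 cm and 50 cm from here on. The comparison asks how a load of 50 cm H2O alters RNA levels. With 1 culture for each height, no value has a replicate error and no difference could be tested.

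Most carriers of this family are built on the same plan of paired membrane helices repeated along the chain, and they work by exchanging one substrate for another or by carrying a proton with it. The ADP/ATP carriers and the phosphate carrier supply ATP synthase and export its product, whereas the citrate, oxoglutarate and aspartate-glutamate carriers connect the citric acid cycle with reactions in the cytosol. Renal tubule epithelium is rich in mitochondria, since it pays for ion transport with ATP. A few members work elsewhere, such as SLC25A17 in the peroxisome and SLC25A46 on the outer mitochondrial membrane.

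Values are FPKM, in which reads are divided by the exon length of the gene and by the size of the library, so levels of different genes can be set side by side. The number of reads behind them is unknown. At the lowest levels, under 0.1 FPKM, 219 of 574 features shared a ratio between the cultures of 1.098 to within 0.2%, which puts 1 read at 9.77% more FPKM for 50 cm than for 2 cm. KRT8, KRT18, KRT19, CDH1 and EPCAM were between 211 and 1641 FPKM in both cultures, and PAX8 and PAX2, renal transcription factors, were between 27.9 and 65.1 FPKM. CDH16, the kidney cadherin, was only at 1.96 and 0.676 FPKM. VIM was at 1802 and 2380 FPKM, COL1A1 was at 0.0745 and 0.0818 FPKM and the leukocyte gene PTPRC was listed at 0 in both. Of the muscle and brown fat genes, ACTN2, CKM and CIDEA were listed at 0 in both cultures and MYH7 was at 0.0543 and 0.0149 FPKM.

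Few carrier RNAs differed strongly between the cultures. Of the 48 members, 40 were above 1 FPKM in both cultures (83.3%, compared with 47.0% of all features), and ratios of 50-cm over 2-cm FPKM were read for these without a pseudocount. SLC25A23 and SLC25A27 were more than 2-fold lower at 50 cm and no member was more than 2-fold higher. Those 2 of 40 members (5.00%) compare with 1.67% of the 11057 features above 1 FPKM in both cultures that passed 2-fold in either direction and with 1.28% that were more than 2-fold lower. Past 1.5-fold there was 1 further member, SLC25A32, which was higher. The resulting 3 of 40 members (7.50%) lie near the 7.19% of all features past 1.5-fold, of which 2.13% were higher and 5.06% lower. The median log2 ratio was -0.00054 over the 40 members and 0.015 over all features, 20 members were higher and 20 lower, beside 52.6% of all features that were higher (between 18 and 22 were higher under the 3 scalings, namely recentring, quantile normalization and equal-sum scaling), and 33 of 40 (82.5%) differed by less than 1.25-fold, compared with 76.1% of all features. Fewer cells of a kind and less RNA per cell cannot be told apart in such bulk RNA.

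**Figure D1:**
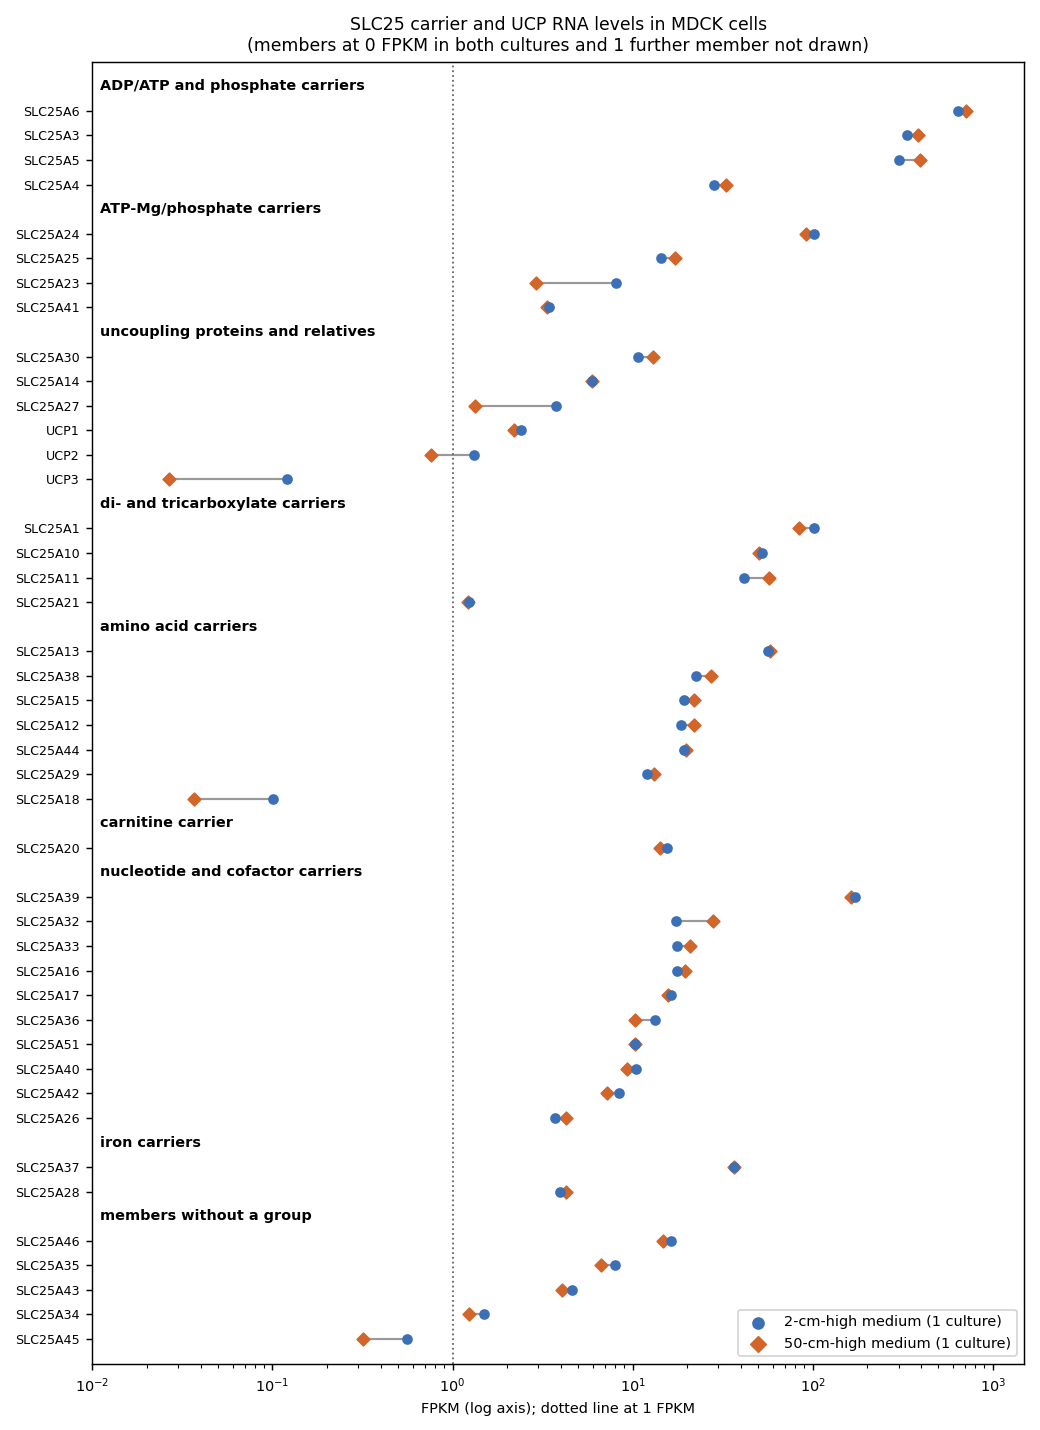
FPKM of each carrier gene (log axis, dotted line at 1 FPKM) in 2-cm-high medium (blue circles) and in 50-cm-high medium (orange diamonds), 1 culture each, by substrate group. SLC25A23, SLC25A27, UCP2, UCP3, SLC25A18 and SLC25A45 show the widest gaps, all toward the lower value in 50-cm-high medium, and the 4 members at 0 FPKM in both cultures and 1 further member are not drawn.

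The 3 most abundant members were carriers that serve ATP production. SLC25A6, SLC25A3, SLC25A5, SLC25A39 and SLC25A24 were the 5 highest members and together held 70.5% of the family's summed FPKM at 2 cm and 72.1% at 50 cm. Over all 48 members the summed FPKM was 2197 at 2 cm and 2416 at 50 cm, 9.95% more, while the sum over all features was 2.27% more. With both cultures rescaled to an equal sum the family was 7.52% higher. The ADP/ATP and phosphate carriers went from 1303 to 1519 FPKM in sum, a difference of 216 FPKM beside a net 219 FPKM for the whole family. The other groups differed in both directions. The amino acid carriers came to 14.1 FPKM and the nucleotide and cofactor carriers to 11.7 FPKM more, and the ATP-Mg/phosphate carriers to 12.7 FPKM less.

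The ADP/ATP carriers exchange cytosolic ADP for matrix ATP. SLC25A6 was the highest member in both cultures, with 641 FPKM at 2 cm and 710 FPKM at 50 cm, a ratio of 1.11. It ranked 136 and 129 by level among all 23510 features. SLC25A5 had 300.1 FPKM at 2 cm and 394 FPKM at 50 cm, a ratio of 1.31 and the largest in this group. SLC25A4, the form that predominates in heart and skeletal muscle, was far lower, with 28.5 and 33.2 FPKM (ratio 1.16). SLC25A31, a form known from the testis, was listed at 0 FPKM in both cultures. Among the ADP/ATP carriers the share of SLC25A5 in the summed FPKM was 30.9% at 2 cm and 34.6% at 50 cm, that of SLC25A6 was 66.1% and 62.4%, and that of SLC25A4 was 2.94% and 2.92%. These genes are close relatives in sequence, and how the mapping divided reads between them is not given in the sources used here. SLC25A3 carries phosphate into the matrix with a proton, and it had 334 FPKM at 2 cm and 383 FPKM at 50 cm (ratio 1.15). The 4 measured members of this group were thus all higher at 50 cm, with a median log2 ratio of 0.21, and they were also higher after recentring, quantile normalization and equal-sum scaling.

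The ATP-Mg/phosphate carriers adjust the adenine nucleotide content of the matrix, and SLC25A23, SLC25A24 and SLC25A25 carry calcium-binding EF-hands that SLC25A41 lacks. SLC25A23 had 8.08 FPKM at 2 cm and 2.92 FPKM at 50 cm, a 2.77-fold lower level. This log2 ratio of -1.47 was rank 24 from the lowest among the 11057 features. Among the 500 features nearest in level the log2 ratio had a median absolute deviation (scaled to an SD) of 0.29. This is a spread across genes and not a replicate error. SLC25A23 lay at -4.99 such deviations, counted here and below from a log2 ratio of 0 and not from the median of those features. Its relatives did not share this difference. SLC25A24, the main form, had 102 and 91.7 FPKM (ratio 0.90). SLC25A25 had 14.4 and 17.1 FPKM (ratio 1.19), and SLC25A41 had 3.45 and 3.33 FPKM (ratio 0.966, above 1 under quantile normalization). SLC25A24 thus made up 79.7% of the summed FPKM of the group in both cultures, while SLC25A23 made up 6.33% at 2 cm and 2.54% at 50 cm. SLC25A23 and SLC25A41 are neighbours in RefSeq's dog assembly UU_Cfam_GSD_1.0, which is not the build used for mapping. On the other side of SLC25A23 lies CRB3, at 21.5 and 19.3 FPKM (ratio 0.897), and beyond it DENND1C was also lower at 50 cm, at 5.13 and 3.13 FPKM (ratio 0.609).

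The uncoupling proteins let protons or anions cross the inner membrane, and UCP1 is the heat-producing carrier of brown fat. SLC25A27, also named UCP4 and known mainly from the brain, had 3.76 FPKM at 2 cm and 1.34 FPKM at 50 cm, a 2.81-fold lower level. Its log2 ratio of -1.49 was rank 19 from the lowest and was the lowest of the 40 members, at -3.28 times the deviation of 0.45 among features of like level. UCP2 had 1.31 FPKM at 2 cm and 0.755 FPKM at 50 cm, and therefore missed the minimum of 1 FPKM with a ratio of 0.574. UCP3 had 0.121 and 0.0266 FPKM, a ratio within 0.05% of that given by 5 reads at 2 cm and 1 read at 50 cm or by any multiple of these. UCP2 and UCP3 are neighbours in the same RefSeq assembly. UCP1 was at 2.41 FPKM at 2 cm and 2.21 FPKM at 50 cm (ratio 0.915), within 0.05% of the ratio given by 6 reads at 2 cm and 5 reads at 50 cm, or by any multiple of these, and it was slightly higher at 50 cm under quantile normalization. CIDEA, another gene of brown fat, was listed at 0 in both cultures. Such read ratios do not give the number of reads, since ACO1, at 85.7 and 83.6 FPKM, also matched 9 reads to 8. SLC25A14, also called UCP5, had 5.95 FPKM in both cultures, and the sign of its difference turned under recentring and equal-sum scaling. SLC25A30, a carrier described in kidney, had 10.7 and 12.9 FPKM (ratio 1.21). The group therefore held values on both sides, and no common direction was seen among its 4 members above 1 FPKM.

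**Figure D2:**
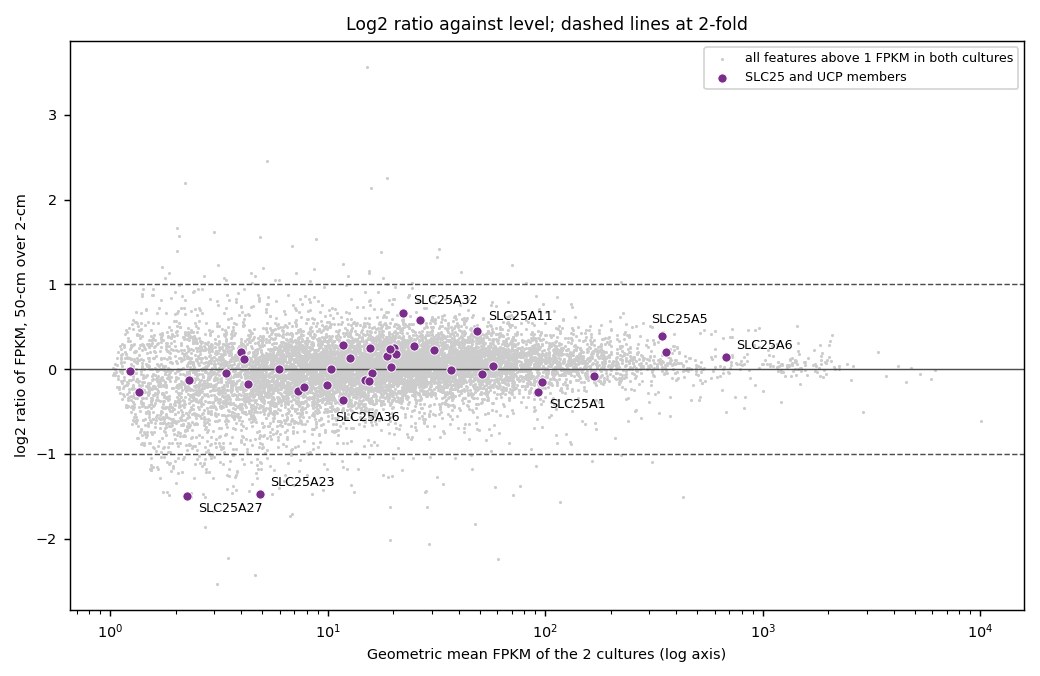
Log2 ratio of 50-cm over 2-cm FPKM against the geometric mean FPKM (log axis) for the 11057 features above 1 FPKM in both cultures (grey) and for the 40 carrier genes among them (purple). SLC25A23 (-1.47) and SLC25A27 (-1.49) are the only carriers beyond the dashed 2-fold lines, and SLC25A32 (0.67) is the highest.

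Both of the genes past 2-fold were weakly expressed. Among the 13 members with a geometric mean of at most 10 FPKM, 2 passed 2-fold, and 3.35% of the 3912 features of that level did so. None of the 27 members above 10 FPKM passed 2-fold, beside 0.756% of the 7145 features of that level. Neither ratio could be written as a ratio of at most 10 reads in each culture within 0.05%. With the read numbers unknown, this gives neither the number of reads behind these 2 genes nor their counting error. After SLC25A27 and SLC25A23 the next lowest of the 40 members was SLC25A36, at a ratio of 0.779, so no member lay close to the 2-fold limit.

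The nucleotide and cofactor carriers had the widest range of ratios among members above 10 FPKM. SLC25A32, which brings folate and flavin cofactors into the matrix, had 17.5 FPKM at 2 cm and 27.8 FPKM at 50 cm. Its ratio of 1.59 was the highest of the family and rank 163 from the highest of all features, and the log2 ratio of 0.67 was 3.29 times the deviation of 0.20 among features of like level. SLC25A26, the S-adenosylmethionine carrier, had 3.70 and 4.26 FPKM (ratio 1.15). SLC25A16 and SLC25A42 have both been linked to coenzyme A in the matrix, and they went in opposite directions, from 17.7 to 19.7 FPKM (ratio 1.11) and from 8.35 to 7.21 FPKM (ratio 0.864). SLC25A51, the NAD carrier, was at 10.3 FPKM in both cultures. SLC25A17 of the peroxisome had 16.3 and 15.7 FPKM (ratio 0.967).

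The pyrimidine nucleotide carriers SLC25A33 and SLC25A36 also differed in direction. SLC25A33 had 17.7 FPKM at 2 cm and 20.9 FPKM at 50 cm (ratio 1.18), and SLC25A36 had 13.2 and 10.3 FPKM (ratio 0.779). Their summed FPKM was 31.0 at 2 cm and 31.2 at 50 cm, but the share of SLC25A33 was 57.3% in the first and 67.0% in the second. SLC25A39, the glutathione carrier, had 172 and 163 FPKM, and its relative SLC25A40 had 10.5 and 9.26 FPKM. The share of SLC25A39 in this pair was 94.3% and 94.6%. Over the 11 nucleotide and cofactor carriers, 5 were higher and 6 lower at 50 cm with a median log2 ratio of -0.0023, and SLC25A51 turned to a slightly higher value under quantile normalization.

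**Figure D3:**
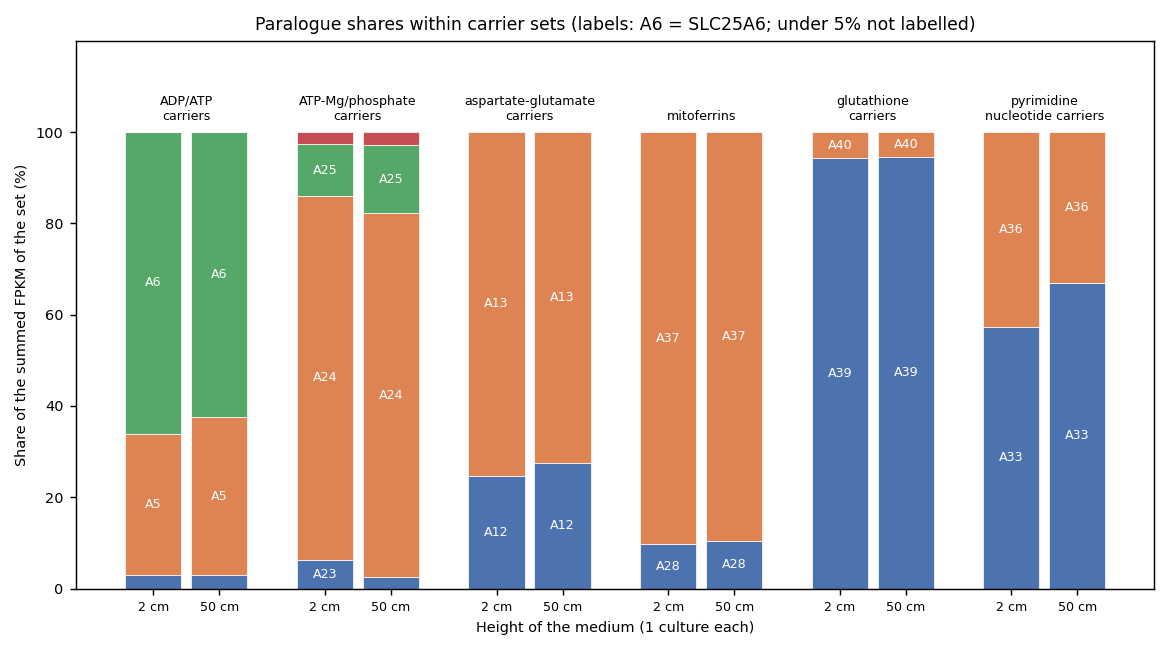
Share of each paralogue in the summed FPKM of its set (%), in 2-cm-high and 50-cm-high medium, 1 culture each; A6 stands for SLC25A6 and so on, and unlabelled segments are SLC25A4, SLC25A41 and, at 50 cm, SLC25A23. SLC25A24, SLC25A37 and SLC25A39 dominate their sets in both cultures, whereas SLC25A33 goes from 57.3% to 67.0% and SLC25A23 from 6.33% to 2.54%.

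Among the di- and tricarboxylate carriers the oxoglutarate carrier was the only one higher at 50 cm as deposited. SLC25A11, which exchanges oxoglutarate for malate and serves the malate-aspartate shuttle, had 41.6 FPKM at 2 cm and 57.0 FPKM at 50 cm. Its ratio was 1.37, and the log2 ratio of 0.45 was 2.36 times the deviation among features of like level. SLC25A1 exports citrate, the source of cytosolic acetyl-CoA for lipid synthesis, and had 101 FPKM at 2 cm and 84.0 FPKM at 50 cm (ratio 0.828). SLC25A10, the dicarboxylate carrier, had 52.4 and 50.2 FPKM (ratio 0.958), and SLC25A21, which carries oxodicarboxylates of lysine breakdown, had 1.24 and 1.22 FPKM (ratio 0.985). The lower value of SLC25A21 became higher under quantile normalization. SLC25A20, which brings acylcarnitines in for fatty acid oxidation, had 15.5 and 14.1 FPKM (ratio 0.913).

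The amino acid carriers showed small differences of one direction. All 6 members above 1 FPKM were higher at 50 cm as deposited, with a median log2 ratio of 0.16 and ratios between 1.02 and 1.21, but SLC25A44 was lower after equal-sum scaling, and SLC25A44 and SLC25A13 were lower after quantile normalization. SLC25A38, which imports glycine for heme synthesis, had the highest ratio, with 22.5 FPKM at 2 cm and 27.3 FPKM at 50 cm. The aspartate-glutamate carriers, the calcium-sensitive step of the malate-aspartate shuttle, were SLC25A12 with 18.5 and 22.0 FPKM (ratio 1.19) and SLC25A13 with 56.3 and 58.0 FPKM (ratio 1.03). SLC25A13 was the main form, with 75.2% and 72.5% of their sum. SLC25A15, the ornithine carrier of the urea cycle, had 19.4 and 22.0 FPKM (ratio 1.14), SLC25A29 for basic amino acids had 12.0 and 13.2 FPKM, and SLC25A44 for branched-chain amino acids had 19.4 and 19.8 FPKM. SLC25A18, a glutamate carrier, had 0.101 and 0.0369 FPKM, a ratio within 0.05% of that of 3 reads to 1 read or of any multiple of these.

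The mitoferrins bring iron in for heme and iron-sulfur clusters and were among the least different members. SLC25A37 had 36.8 FPKM at 2 cm and 36.6 FPKM at 50 cm (ratio 0.995). SLC25A28, the less abundant form here, had 3.94 and 4.28 FPKM (ratio 1.09). SLC25A37 made up 90.3% and 89.5% of their sum.

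The remaining members, most of them without a firmly assigned substrate, were lower at 50 cm where they could be read. SLC25A46 had 16.3 and 14.8 FPKM (ratio 0.904), SLC25A35 had 7.97 and 6.64 FPKM (ratio 0.833), SLC25A43 had 4.58 and 4.06 FPKM (ratio 0.886), and SLC25A34 had 1.49 and 1.24 FPKM (ratio 0.83). These 4 genes had a median log2 ratio of -0.22 and remained lower under each of the 3 scalings. Their log2 ratios were small, between -0.92 and -0.54 times the deviation among features of like level. SLC25A43 lies next to SLC25A5 in the RefSeq assembly, and the 2 genes had ratios on either side of 1. SLC25A45 had 0.556 and 0.320 FPKM (ratio 0.576), below the minimum. SLC25A47, SLC25A48 and SLC25A53 were listed at 0 FPKM in both cultures, like SLC25A31. Below the minimum, 4 members at values above 0 were lower at 50 cm, namely UCP2, UCP3, SLC25A18 and SLC25A45. UCP2 was above 1 FPKM at 2 cm, so it entered this class only through its lower value at 50 cm. The share of all such features that were lower is not given here. With every value above 0 accepted, 4 of 44 members passed 2-fold, all of them lower, beside 8.50% of 14306 features that passed it in either direction. The share that passed it downward at this minimum is not given here.

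The genes that act with the carriers were read from lists, for which the median log2 ratio of 0.015 over all features, of which 52.6% were higher at 50 cm, is the background. Carriers reach the inner membrane through the TOM pore, the small TIM chaperones and the TIM22 complex, and all 6 import genes of the last 2 kinds in the files, of 9 listed, were higher at 50 cm, with a median log2 ratio of 0.27, although AGK was lower under quantile normalization. TIMM10 had 31.9 FPKM at 2 cm and 50.1 FPKM at 50 cm (ratio 1.57), TIMM8A had 27.6 and 37.1 FPKM (ratio 1.34), and TIMM22, the channel subunit, had 27.1 and 28.7 FPKM (ratio 1.06). Of the 10 porin and TOM genes, 7 were higher, with a median log2 ratio of 0.18. TOMM40, the pore of the outer membrane, had 98.0 and 147 FPKM. This ratio of 1.503 was past 1.5-fold as deposited but not after any of the 3 scalings or with a pseudocount of 1. VDAC1, the main porin, had 712 and 691 FPKM (ratio 0.97), while VDAC2 had 285 and 349 FPKM (ratio 1.23).

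All 8 biogenesis regulators above 1 FPKM were higher at 50 cm as deposited and under each scaling, with a median log2 ratio of 0.11. The log2 ratios of TFAM, GABPA, NRF1, TFB2M and TFB1M were small, between 0.15 and 0.63 times the deviation among features of like level. Those of PPARGC1B, ESRRA and PPRC1 were 1.16, 2.36 and 3.17 times that deviation. PPRC1, a coactivator of the PGC-1 family, had 14.5 and 22.2 FPKM (ratio 1.53), and its value was past 1.5-fold except after equal-sum scaling and with a pseudocount of 1. ESRRA, a nuclear receptor that acts with these coactivators, had 46.5 and 63.6 FPKM (ratio 1.37). TFAM, which packages mitochondrial DNA, had 9.57 and 9.82 FPKM (ratio 1.03). PPARGC1A itself was at 0.0115 FPKM at 2 cm and was listed at 0 at 50 cm.

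**Figure D4:**
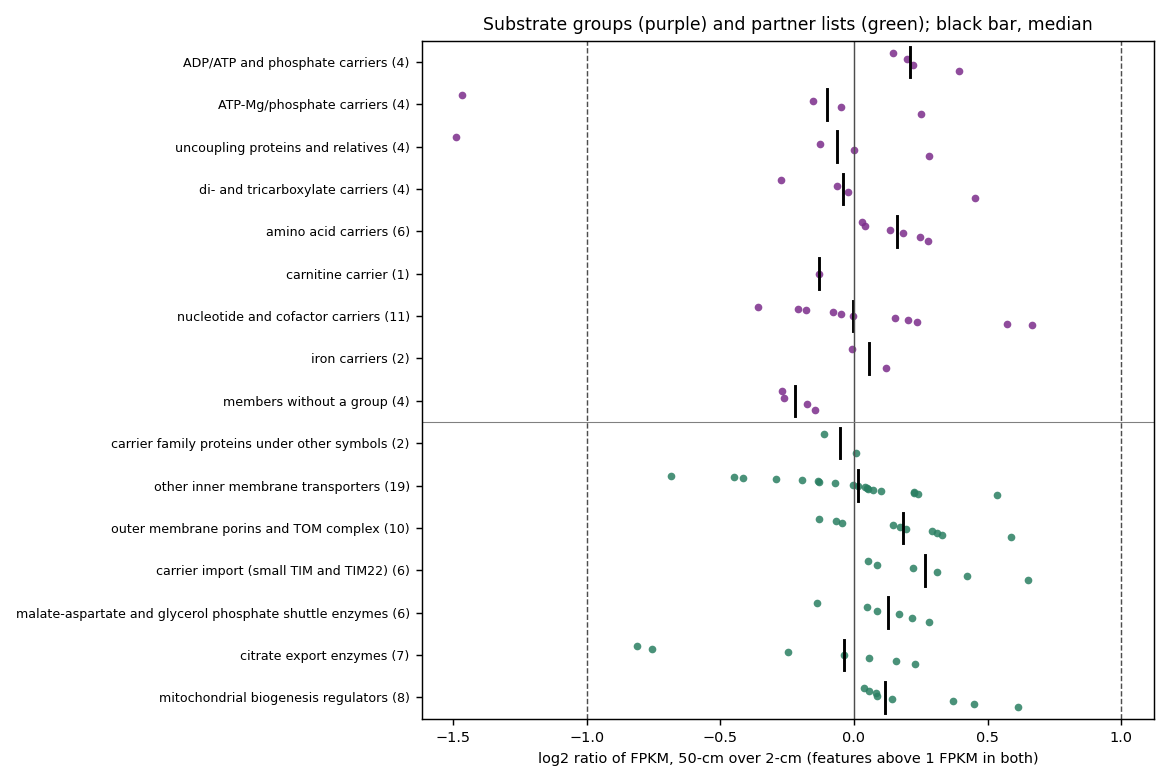
Log2 ratios of 50-cm over 2-cm FPKM for each substrate group of the carriers (purple) and each list of partner genes (green), members above 1 FPKM in both cultures, with their number in brackets and the median as a black bar. The ADP/ATP and phosphate carriers (median 0.21) and the import genes (median 0.27) lie to the right of 0, and the remaining members (median -0.22) lie to the left.

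Transporters of the inner membrane outside this family showed no common direction, with 10 of 19 genes higher, 9 lower and a median log2 ratio of 0.016, and with 7 of 19 higher under quantile normalization. SLC8B1, the sodium-calcium exchanger of mitochondria, was the only one past 1.5-fold, with 11.2 FPKM at 2 cm and 6.96 FPKM at 50 cm (ratio 0.622). This 1 of 19 genes (5.26%) lies near the 7.19% of all features past 1.5-fold, of which 5.06% were lower. LETM1, a cation exchanger, was the highest with 35.1 and 50.9 FPKM (ratio 1.45). The pyruvate carrier subunits MPC1 (ratio 0.914) and MPC2 (ratio 0.911) and the calcium uniporter pore MCU (ratio 0.874) were slightly lower. MTCH1 and MTCH2, relatives of the carriers that sit in the outer membrane under other symbols, had 182 and 168 FPKM and 68.0 and 68.4 FPKM, and MTCH2 was lower under each of the 3 scalings.

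The enzymes that make or use the carried substrates were also read. Of the 6 shuttle enzymes above 1 FPKM, 5 were higher (4 under quantile normalization), led by GOT1 with 36.8 and 44.6 FPKM (ratio 1.21), a cytosolic partner of SLC25A11 and SLC25A13 in the malate-aspartate shuttle. MDH1 was lower at a ratio of 0.909, and GPD1, below the minimum in both cultures, had 0.873 and 0.441 FPKM (ratio 0.505). Among the 7 genes of citrate handling the median log2 ratio was -0.036. Of these, 2 (28.6%) were more than 1.5-fold lower, beside 5.06% of all features above 1 FPKM in both cultures. The list was short and chosen with earlier results of these data known, so this share only describes its genes and was not tested. ACLY, which splits the citrate that SLC25A1 exports, had 278 FPKM at 2 cm and 158 FPKM at 50 cm (ratio 0.57), and the cytosolic IDH1 had 79.2 and 47.0 FPKM (ratio 0.593). CS, which makes citrate in the matrix, had 135 and 158 FPKM (ratio 1.17).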

How the data were processed

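MDCK cells were compared between 2-cm-high medium (1 culture) and 50-cm-high medium (1 culture). The authors sequenced stranded mRNA libraries in single-end mode (75 bases), aligned the reads to CanFam3.1 by TopHat2 2.0.13 with Bowtie2 2.2.3 and SAMtools 0.1.19, and deposited FPKM values made by Cuffnorm 2.2.1. The annotation, the scaling method and the use of strand in counting are not given in the sources used here.

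The log2 ratio (50 cm over 2 cm) was taken without a pseudocount wherever both cultures exceeded 1 FPKM. Values past 2-fold and past 1.5-fold were counted and set beside the share over all features. Since each group has 1 culture, no test was made. Members, substrate groups and partner lists were chosen with earlier results of these data known. Of the list members, SLC25A2, SLC25A22, SLC25A52 and some partner genes were not analysed here. The values of 1 further member, which is included in the counts and medians, are not reported here. Of 48 members, 47 were matched by symbol in RefSeq (UU_Cfam_GSD_1.0), used for neighbours only. Genes past 1.5-fold, the 5 highest members and the extremes of each group were to be given with values, and the others were added as a description. The 9 alternatives comprised 4 FPKM minima, pseudocounts of 0.1 and 1, recentring, quantile normalization and equal-sum scaling. The calculation was checked on made-up data. Software was pandas 2.3.3 and numpy 2.4.6 under Python 3.11.15, with plots by matplotlib 3.10.9.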

Additional observations from a re-analysis of the deposited data

How the results depend on the processing

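With 1 culture for each height, the read numbers unknown and no replicate error, every value is that of these cultures alone. The number of members past 2-fold (2) was the same when 1 FPKM was required in at least one culture, at a minimum of 0.1 FPKM, with either pseudocount and under the 3 scalings. It was 4 at any value above 0 and 0 at a minimum of 5 FPKM, which SLC25A23 and SLC25A27 did not pass. The number past 1.5-fold (3) was 7 at any value above 0, 5 at a minimum of 0.1 FPKM, 4 with 1 FPKM required in at least one culture, which UCP2 passed, and 1 at 5 FPKM, since members enter or leave with the minimum. The share of all features past 1.5-fold at these other minima is not given here. Past 2-fold, 1.67% of all features were counted above 1 FPKM in both cultures and 8.50% at any value above 0. Counts at unlike minima therefore cannot be set side by side. The median log2 ratio of the family ranged from -0.033 to 0.061 over the 9 alternatives. That of the uncoupling proteins was -0.46 at any value above 0, 0.14 at 5 FPKM and 0.061 under quantile normalization, and that of the ATP-Mg/phosphate carriers was 0.049 at 5 FPKM. The remaining members came to -0.10 under quantile normalization. A pseudocount of 1 brought SLC25A27 to -1.03. No other list median moved by 0.1 or more on the log2 scale. No paired analysis was possible because each group has 1 culture.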
